A study of Mus musculus with 6 samples.

Results

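The NR4A and EGR genes are immediate early genes, whose transcripts appear within minutes of a growth factor, calcium, cAMP or stress signal without new protein synthesis. Members were taken by gene symbol from a list of 6, and 5 of them (Nr4a1, Nr4a2, Nr4a3, Egr2 and Egr3) were measured here among 11779 genes. Egr1, the remaining listed gene, was not analysed here. The RNA came from long-term hematopoietic stem cells, the bone marrow cells that renew blood for life, sorted as Lin-Sca1+c-Kit+CD48-CD150+ from female mice 8 weeks of age. The HET group (c-Mycfl/+Mx1Cre, 3 libraries numbered 1, 3 and 4) carried a floxed allele of Myc together with the Mx1-Cre transgene, and 3 intraperitoneal poly(I:C) injections of 6 mg/kg, on alternate days, were given to delete the floxed allele. The WT group (c-Mycfl/+, 3 libraries with the same numbers) carried the floxed allele without Cre, and whether its mice also received poly(I:C) is not stated. Mx1-Cre is driven by an interferon-responsive promoter that is also active outside blood stem cells. In the titles the HET libraries are named KO, although the mice kept an allele of Myc that was not floxed. Nothing in the labels says whether each library came from a separate mouse, so p-values measure the spread between these libraries.

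NR4A proteins are orphan nuclear receptors that bind DNA as monomers or, for some of them, as partners of RXR receptors. Their activity follows mainly from how much of each is made. Mice lacking both Nr4a1 (NUR77) and Nr4a3 (NOR1) develop acute myeloid leukemia, and Nr4a2 (NURR1) has been linked to blood stem cell quiescence. EGR proteins are zinc finger factors that bind GC-rich DNA and are held in check by the corepressors NAB1 and NAB2. Egr2 (KROX20) is best known for myelination and for restraint of T cell activation, which it shares with Egr3.

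Total counts were between 4627452 and 9886223 in HET libraries, with HET 1 at the upper end, and between 4249490 and 5600856 in WT libraries. All 11 markers of long-term stem cells were in the table, among them Kit, Slamf1 (CD150), Procr and Hlf, and their summed level was 2911 to 3425 CPM in HET and 3110 to 3452 CPM in WT. The lowest sum was that of HET 1. CPM are counts scaled to a common library total, with TMM factors. Myc itself, the gene carrying the floxed allele, measured 294, 387 and 372 CPM in HET 1, 3 and 4, against 447, 427 and 542 CPM in WT 1, 3 and 4. All HET libraries were lower for Myc than all WT libraries, and the gene did not pass the test over all genes (log2 fold change -0.43 ± 0.12 SE, edgeR adjusted p = 0.312).

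The sequence just upstream of the gene start was compared because the members tended to vary together across libraries, as described further on. The 250 bases before the start are printed 5′ to 3′ on the strand of the gene (RefSeq, GRCm38.p6), and capitals mark the core of the cAMP response element, TGACG or its reverse complement CGTCA (called core sites here), and the CArG box bound by serum response factor. Promoter windows were searched for 4 of the 6 listed genes. Egr3 had no window in the RefSeq promoters used here. The RefSeq start of Nr4a1, at 101266846, lies inside the longer gene span of GENCODE M21, and that of Nr4a3, at 48045305, lies downstream of the GENCODE start at 48045153.
Nr4a1, chr15:101266596-101266845, plus strand: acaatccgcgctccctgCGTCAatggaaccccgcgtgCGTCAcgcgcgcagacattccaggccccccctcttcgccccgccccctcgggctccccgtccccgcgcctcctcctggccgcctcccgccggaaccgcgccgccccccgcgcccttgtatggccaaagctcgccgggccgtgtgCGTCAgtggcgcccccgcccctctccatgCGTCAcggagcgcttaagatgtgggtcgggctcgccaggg
Nr4a2, chr2:57124004-57124253, minus strand: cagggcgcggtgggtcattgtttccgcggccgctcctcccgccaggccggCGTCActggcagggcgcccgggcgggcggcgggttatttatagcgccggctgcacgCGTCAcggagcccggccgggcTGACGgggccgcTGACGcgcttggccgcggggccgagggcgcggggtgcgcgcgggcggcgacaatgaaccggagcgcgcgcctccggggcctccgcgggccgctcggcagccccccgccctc
Nr4a3, chr4:48045055-48045304, plus strand: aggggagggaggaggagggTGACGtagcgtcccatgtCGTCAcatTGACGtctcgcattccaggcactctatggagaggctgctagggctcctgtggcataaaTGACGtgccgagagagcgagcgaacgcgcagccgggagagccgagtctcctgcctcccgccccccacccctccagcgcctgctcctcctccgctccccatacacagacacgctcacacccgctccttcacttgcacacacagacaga
Egr2, chr10:67537619-67537868, plus strand: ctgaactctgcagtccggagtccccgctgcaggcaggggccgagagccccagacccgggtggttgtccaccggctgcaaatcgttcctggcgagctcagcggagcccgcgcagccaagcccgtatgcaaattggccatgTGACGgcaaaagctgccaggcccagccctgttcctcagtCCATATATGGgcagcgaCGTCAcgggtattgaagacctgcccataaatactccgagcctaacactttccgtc

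Each of the 3 NR4A promoters held 4 cAMP response core sites. Among 32817 promoter windows of this length, 17.7% held at least 1 and 0.137% (45 windows) held 4 or more. Of the 9171 windows with a GC content of at least 60%, which all 3 NR4A windows had, the share with 4 or more was 0.371%. The Egr2 window before the start at position 67537869 held 2 core sites, as 3.9% of all windows did or exceeded, and also a CArG box, which 1.47% of windows held. RefSeq lists 5 windows for Egr2, and those before the starts at 67535499 and 67537566 held no core site. The full element TGACGTCA, found in 1.55% of windows, was in none of the NR4A or Egr2 windows. The EGR site GCGNGGGCG (4.7% of windows) was found once each in Nr4a1 and Nr4a2. The NR4A monomer site AAAGGTCA (1.34%) was found in none of these windows, and the E-box CACGTG (6.02%) was found only in the most upstream Egr2 window. Both strands were searched, no core site overlapped a match of another kind, and the motifs were chosen with the sequences in view. A match describes letters and was not tested for binding.

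All 5 measured genes had lower levels in HET than in WT on average, at between 16.7% and 38.1% of the WT mean. Only Egr3 had libraries of the 2 groups that overlapped. In edgeR's quasi-likelihood test with Benjamini-Hochberg adjustment over 10869 genes, 0 of the 5 passed a threshold of 0.05, where 24 genes (0.221%) passed as lower and 28 (0.258%) in either direction. By limma-voom, 1 of the 5 passed (0.193% of genes as lower), and by DESeq2 0 passed (0.416%). Egr2 passed the filter on low counts only through its WT libraries and so had to differ, and the next counts leave it out. An unadjusted edgeR p under 0.05 with a lower level in HET was reached by 3 of the other 4, against 3.19% of all genes. The 3 HET libraries were all below the 3 WT libraries for 3 of these 4, against 5.64% of all genes. The members were chosen with earlier results of these data known, so these counts are no separate evidence. A lower level in bulk RNA can mean fewer expressing cells or less RNA per cell, which cannot be told apart.

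**Figure D1:**
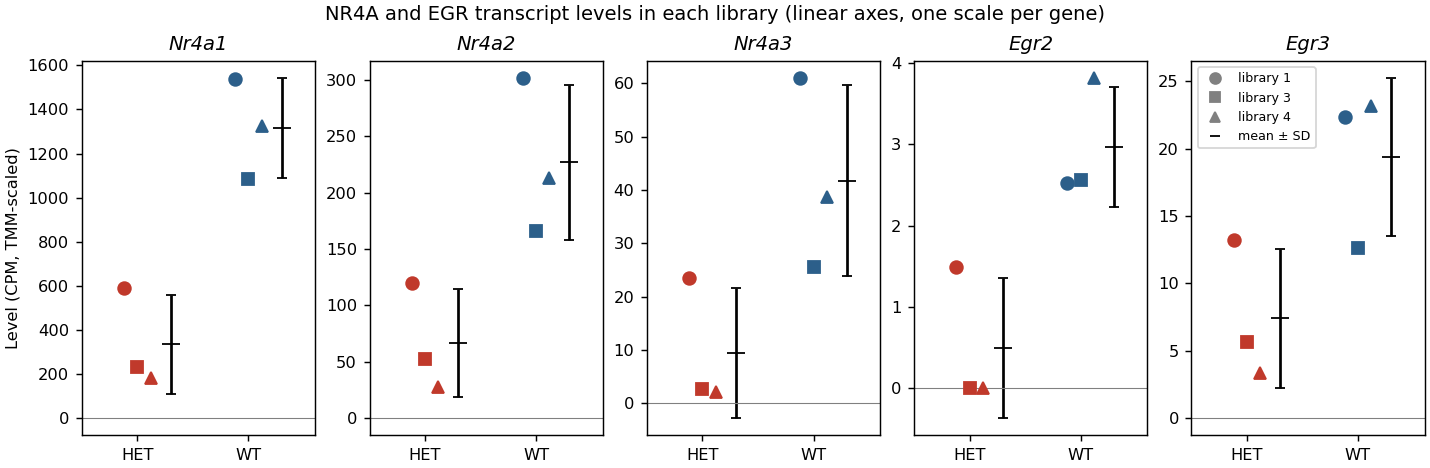
Level of each gene in CPM (vertical axes, linear, a separate scale per gene) in the HET libraries (red) and the WT libraries (blue), with symbols for library numbers and black bars for the mean ± SD of 3 libraries. HET 1 is the highest HET library in each panel, and only for Egr3 does it (13.2 CPM) exceed a WT library (WT 3, 12.6 CPM).

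Nr4a1 was the most abundant of the genes. It lies on chromosome 15 (ENSMUSG00000023034; GRCm38, 101254269 to 101274795, plus strand), and encodes the receptor NUR77. It measured 590, 231 and 180 CPM in HET 1, 3 and 4, against 1536, 1082 and 1326 CPM in WT 1, 3 and 4. The highest HET library was still below the lowest WT library, which was 1.83 times as high. The means were 334 ± 224 CPM in HET and 1315 ± 227 CPM in WT (SD, n = 3 each), and the log2 fold change was -1.97 ± 0.56 (SE; 95% interval -3.50 to -0.45). The unadjusted edgeR p was 0.0225 and the adjusted p 0.808. By fold change, Nr4a1 ranked 12 from the lowest of the 10869 genes, while by p it ranked 300.

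Nr4a2 encodes NURR1 and lies on chromosome 2 (ENSMUSG00000026826; 57106830 to 57124003, minus strand). It measured 120, 51.9 and 27.9 CPM in HET 1, 3 and 4, against 302, 166 and 213 CPM in WT 1, 3 and 4. The groups did not overlap, and HET 4 was the lowest library. The means were 66.5 ± 47.7 CPM in HET and 227 ± 68.8 CPM in WT (SD, n = 3 each). This gave -1.74 ± 0.64 (SE) as log2 fold change, at an unadjusted edgeR p of 0.0495 and an adjusted p of 0.950.

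Nr4a3 encodes NOR1 and lies on chromosome 4 (ENSMUSG00000028341; 48045153 to 48086447, plus strand). Its counts were 237, 12 and 11 in HET 1, 3 and 4, against 338, 140 and 162 in WT 1, 3 and 4. Scaled for depth these were 23.5, 2.62 and 2.14 CPM in HET and 61.0, 25.6 and 38.6 CPM in WT. HET 3 and HET 4 were close to each other and far below all other libraries, whereas HET 1 was 8.98 times as high as HET 3 and only just below WT 3. The log2 fold change was -2.03 ± 1.05 (SE; 95% interval -4.89 to 0.83), with an edgeR unadjusted p of 0.122 and an adjusted p of 0.994.

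Egr2 was the least abundant. It lies on chromosome 10 (ENSMUSG00000037868; 67535475 to 67542188, plus strand). Its counts were 15, 0 and 0 in HET 1, 3 and 4, against 14, 14 and 16 in WT 1, 3 and 4. At these depths a count of 0 allows up to 0.654 CPM in HET 3 and 0.585 CPM in HET 4 (3 counts), while the 3 WT libraries measured 2.53, 2.56 and 3.82 CPM. Over all libraries, 15 HET counts against 44 WT counts, scaled for depth, gave 26.2% of the WT level (exact 95% interval 13.5% to 48.0%). Intervals and limits of this kind cover counting error only, and here all the HET counts came from HET 1. The edgeR unadjusted p was 0.0392 and the adjusted p 0.928.

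Egr3 lies on chromosome 14 (ENSMUSG00000033730; 70077203 to 70082614, plus strand). It measured 13.2, 5.67 and 3.31 CPM in HET 1, 3 and 4, against 22.4, 12.6 and 23.1 CPM in WT 1, 3 and 4. HET 1 lay slightly above WT 3, so the groups overlapped. The log2 fold change was -1.33 ± 0.43 (SE), and Egr3 had the smallest edgeR p of the 5 (unadjusted 0.00590, adjusted 0.497). For the other 4 genes the exact two-sided permutation test over the 6 libraries gave 0.1, the smallest p that 3 against 3 allows, and for Egr3 it gave 0.2. The value for Egr2, which passed the filter on low counts only through WT, is no separate evidence. No annotated gene overlapped any of the 5 in GENCODE M21.

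**Figure D2:**
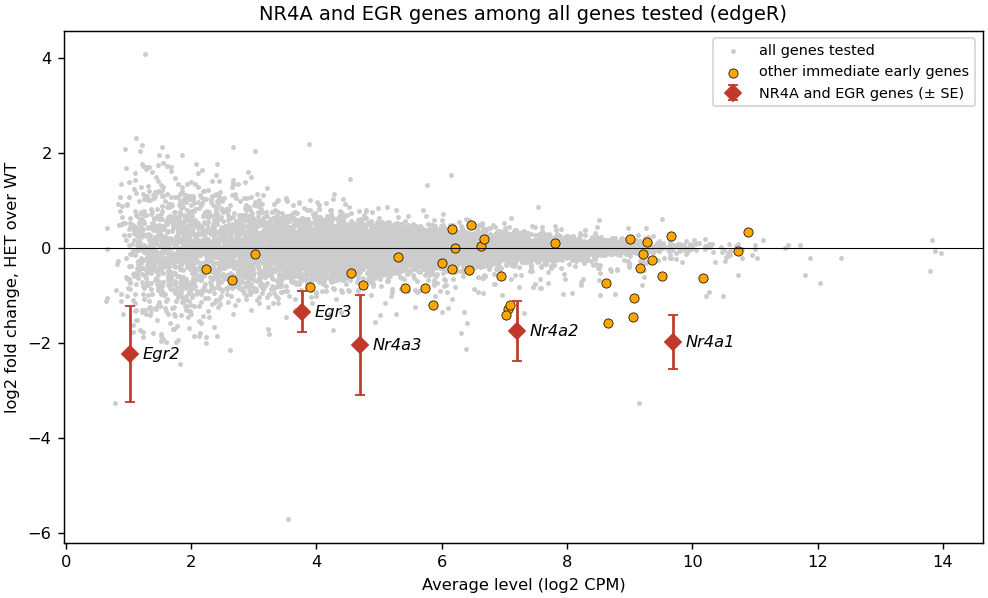
log2 fold change of HET over WT (vertical axis) against average level in log2 CPM (horizontal axis) for each of 10869 genes (grey), for 37 other immediate early genes (orange) and for the NR4A and EGR genes (red diamonds ± SE). The red points other than Egr2, which passed the filter on low counts only through WT, lie between -2.03 and -1.33, and 1.45% of all genes are at -1 or lower.

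Levels of different genes were compared per length, as CPM per kilobase of annotated exon. Nr4a1 had 95.1 ± 63.7 in HET and 375 ± 64.8 in WT, Nr4a2 16.4 ± 11.7 in HET and 55.9 ± 16.9 in WT, and Egr2 0.146 ± 0.253 in HET and 0.873 ± 0.216 in WT (SD, n = 3 each). Nr4a1 was the highest and Egr2 the lowest of the 5 in all 6 libraries, and Nr4a2 was second in all 6. Nr4a3 and Egr3 changed places: Egr3 was above Nr4a3 in HET 3 (1.29 against 0.437) and HET 4 (0.752 against 0.358), and below it in HET 1 (2.99 against 3.93) and in the 3 WT libraries. Over libraries, the levels of these 2 genes overlapped in both groups. Against 10867 genes with a known length, mean Nr4a1 stood at the 97.3 percentile in HET and the 99.5 percentile in WT, and mean Nr4a2 at the 69.0 percentile in HET and the 93.7 percentile in WT.

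The members kept different proportions to Nr4a1. Counts of Nr4a2 were between 15.5% and 22.5% of those of Nr4a1 in HET libraries and between 15.4% and 19.6% in WT libraries, so this ratio overlapped while both genes varied several-fold. Nr4a3 counts were 3.98% of Nr4a1 in HET 1 and 1.13% and 1.19% in HET 3 and HET 4, against 2.37% to 3.97% in WT. Egr3 counts were 1.84% to 2.45% of Nr4a1 in HET and 1.17% to 1.74% in WT. The 2 ranges lay close together without overlap, and their difference was not tested. The nearest values were 1.84% in HET 4, from 17 Egr3 counts, and 1.74% in WT 4, from 97, and counting error was not taken into account.

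The members varied more than most genes among HET libraries, and to a lesser degree among WT libraries too. The SD of the log2 level among the 3 HET libraries was 0.90 for Nr4a1, which exceeded that of 95.4% of genes, and 1.82 for Nr4a3, which exceeded that of 99.5%. In WT the SD was 0.25 for Nr4a1, at the 56.8 percentile of all genes, and 0.62 for Nr4a3, at the 90.1 percentile. The other members lay between them in WT, at percentiles from 66.3 for Egr2 to 83.8 for Egr3. HET 1 was the highest HET library for 5 of the 5 members, against 35.1% of all genes. Relative to the WT mean on the log2 scale, HET 1, 3 and 4 stood at -1.14, -2.49 and -2.85 for Nr4a1 and at -0.73, -3.74 and -3.99 for Nr4a3. HET 1 was also the deepest library. With its counts thinned to the mean total of the others, the log2 fold changes were -1.96 for Nr4a1 and -2.16 for Nr4a3.

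Which test was used, and whether HET 1 was included, decided the call. Without HET 1, edgeR called Nr4a1 (log2 fold change -2.68 ± 0.15 SE, adjusted p = 1.83e-07), Nr4a3 (-4.13 ± 0.42, 1.27e-06) and Egr3 (-2.11 ± 0.44, 0.0159) lower in HET, so that 3 of the 5 passed, against 0.471% of all genes. Nr4a2 (-2.52 ± 0.42) had an adjusted p of 0.190 in that fit. HET 1 was the highest HET library for 5 of the 5 members, so leaving it out had to widen each difference. The calls in that fit are no separate evidence. In the other 5 fits that left out a library, 0 of the 5 genes passed, and the adjusted p of Nr4a1 was 0.801 or higher. With all 6 libraries, limma-voom called Nr4a1 (adjusted p = 0.00405), and limma-voom with library weights called Nr4a1 (5.20e-05) and Nr4a2 (0.00220), against 0.331% of all genes as lower. Over the 10 alternatives that kept all 6 libraries, the adjusted p of Nr4a1 lay between 5.20e-05 and 0.842. The log2 fold change was negative for each of the 5 genes in every fit that was run, and with all 6 libraries it was negative for 49.3% of all genes. For Egr2, which passed the filter on low counts only through WT, the sign is no separate evidence.

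**Figure D3:**
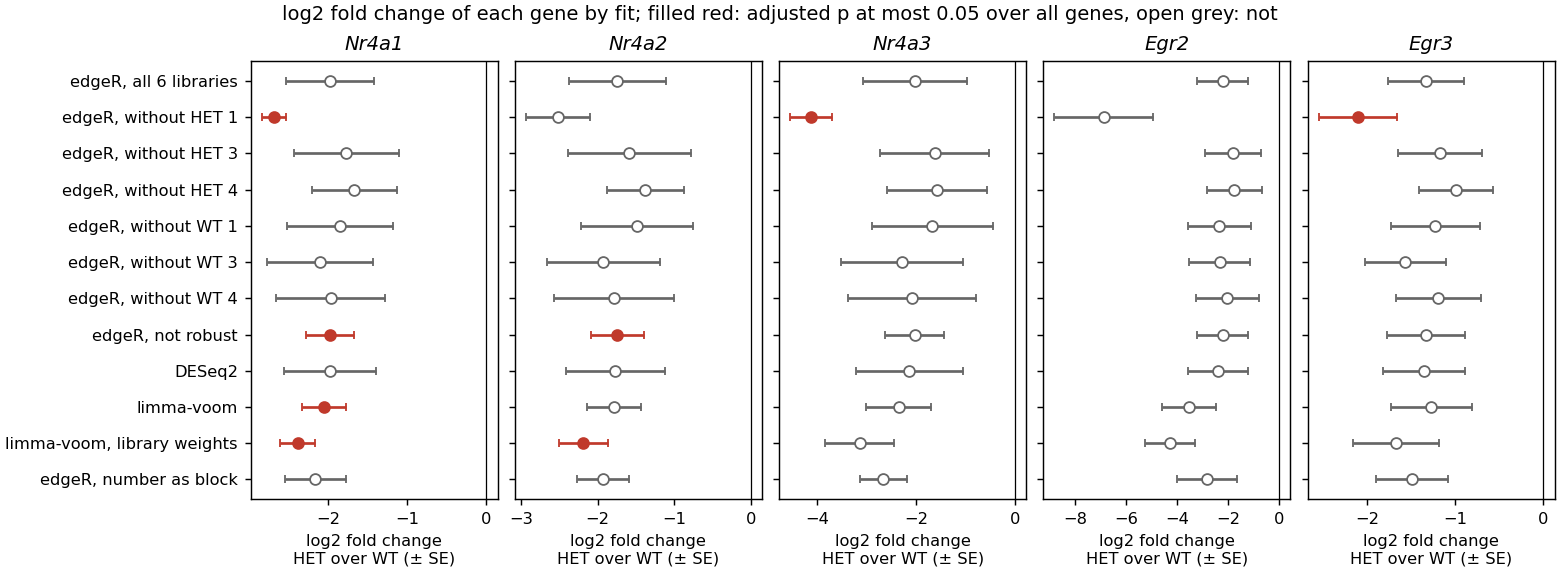
log2 fold change of HET over WT with its SE (horizontal axes, a separate scale per gene) for each gene, in the fit of all 6 libraries, in the 6 fits that leave out a library, and with other tests. Filled red points passed an adjusted p of 0.05 over all genes. The fit without HET 1 has the lowest value for each gene, and for Egr2 (-6.89) it sets WT against HET libraries with 0 counts, where the value depends on the prior count added by edgeR.

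The library profile of Nr4a1 was compared with those of 7949 genes whose average log2 CPM was 4 or more, by the root mean square difference of log2 levels relative to the WT mean over the 6 libraries. The nearest was Plaur, which encodes the urokinase receptor, at 0.176, and Nr4a2 was second at 0.232. Nfkbid, which encodes a nuclear IkB protein (0.423), Fzd4, a WNT receptor gene (0.443), and Cdkn1a, the gene of the cell cycle inhibitor p21 (0.447), followed. Placed in the same order, Egr2 would stand at 4, Egr3 at 6 and Nr4a3 at 13, though all were below the level asked of the compared genes. The place of Egr2 says little, because its value of -3.25 in both HET 3 and HET 4 comes from 0 counts and the prior count. Plaur measured 60.4, 23.3 and 20.9 CPM in HET 1, 3 and 4, against 159, 97.1 and 115 CPM in WT 1, 3 and 4. HET 1 lay between the other HET libraries and the WT libraries. That place, and the calls of these genes with and without HET 1, follow from choosing them for a profile like that of Nr4a1 and are no separate evidence. Of these 5 genes Fzd4 passed in edgeR with all 6 libraries (log2 fold change -1.56 ± 0.28 SE, adjusted p = 0.0117). It did not pass without HET 3 (0.0546), HET 4 (0.142) or WT 1 (0.194). Without HET 1, Plaur (adjusted p = 1.83e-07), Nfkbid (4.41e-07) and Cdkn1a (1.56e-04) passed as well, and in the other fits that left out a library they did not.

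**Figure D4:**
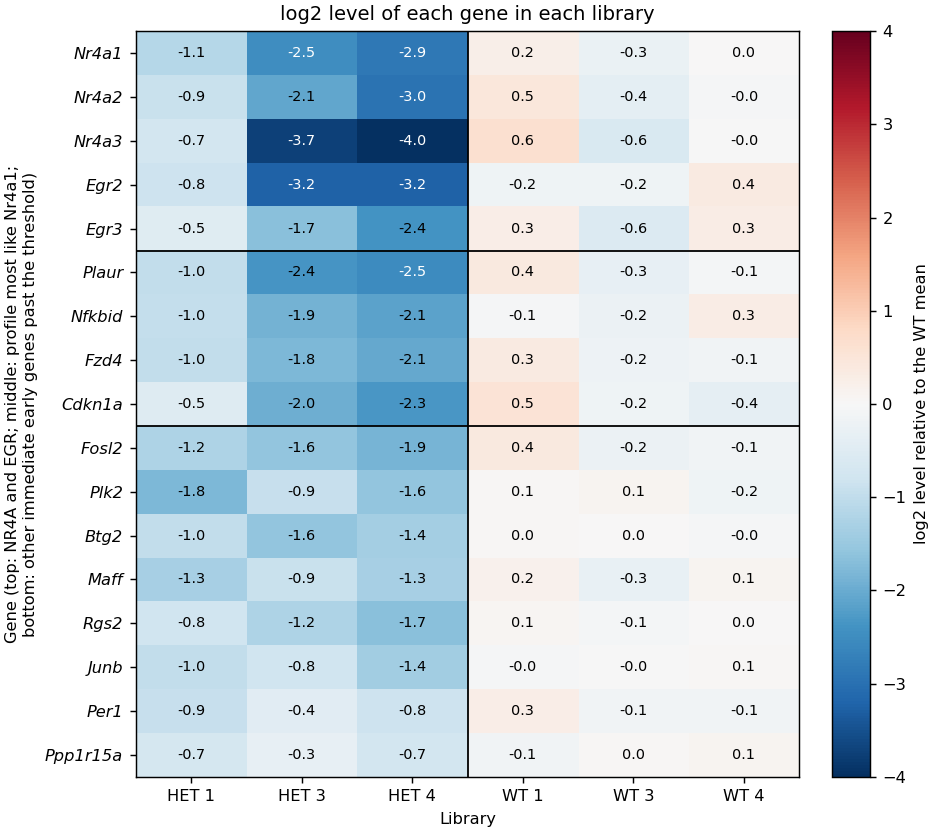
log2 level relative to the WT mean (colour and printed value) of each gene (rows) in each library (columns, HET left of the line and WT right of it). The NR4A and EGR genes and those with a profile like Nr4a1 are lowest in HET 3 and HET 4, as are Fosl2, Btg2 and Rgs2 among the other immediate early genes past the threshold. In HET 1 the members lie between -1.14 (Nr4a1) and -0.49 (Egr3), and those other genes between -1.79 (Plk2) and -0.70 (Ppp1r15a). For Egr2 the values in HET 3 and HET 4 come from 0 counts and the prior count.

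Of the other immediate early genes, 8 of the 37 tested fell in HET by edgeR, 0 rose and 29 did not pass, against 0.221% of all genes called lower. Their median log2 fold change was -0.44, against 0.004 over all genes. The log2 fold change was negative for 27 of the 37, against 49.3% of all genes, and positive for 10. Among the 10 were the AP-1 subunit genes Jun (0.35) and Fosb (0.26). Every HET library was below every WT library for 16 of the 37, or 43.2% (5.64% of all genes). Every HET library was above every WT library for 1, Klf10, as for 510 of 10869 genes. The list was chosen with earlier results of these data known, so these counts are no separate evidence. The 8 were the AP-1 subunit genes Fosl2 and Junb, the antiproliferative gene Btg2, the small MAF gene Maff, the G protein regulator Rgs2, the polo-like kinase gene Plk2, the clock gene Per1 and Ppp1r15a (GADD34), which acts on initiation factor eIF2. Their log2 fold changes lay between -1.57 for Fosl2 and -0.58 for Ppp1r15a. Junb measured 367, 413 and 277 CPM in HET 1, 3 and 4, against 704, 714 and 755 CPM in WT 1, 3 and 4 (log2 fold change -1.04 ± 0.12 SE, edgeR adjusted p = 1.95e-04). Btg2, Junb and Rgs2 passed in all 6 fits that left out a library. The number of calls in the list was 4 without HET 4 and 4 without WT 1. Fosl2 was lost without HET 3 (0.0734), Plk2 without HET 4 (0.0530) or WT 1 (0.0548), and Maff without HET 4 (0.0753) or WT 1 (0.0626). Per1 was lost without HET 4 (0.326), WT 1 (0.194) or WT 3 (0.0518), and Ppp1r15a without HET 4 (0.390), WT 1 (0.0543), WT 3 (0.170) or WT 4 (0.233).

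Among the HET libraries, HET 1 was the highest for 5 of the 5 members and the lowest for 0. It was the highest for 10 of the 37 other immediate early genes and the lowest for 19. For the 8 of them that fell, it was the highest for 3 and the lowest for 3, and over all genes it was the highest for 35.1% and the lowest for 35.5%. The differences in placing were not tested. The mean log2 level of the 37 relative to WT was -0.65, -0.22 and -0.52 in HET 1, 3 and 4, and that of the 5 members was -0.81, -2.64 and -3.09. Without HET 1 the list had 10 lower calls and 1 higher, Ier5, among which were all 8 of those made with every library. Sik1, a salt-inducible kinase gene, had the lowest log2 fold change of that list after Fosl2, with 383, 263 and 212 CPM in HET 1, 3 and 4 and 1025, 610 and 697 CPM in WT 1, 3 and 4. Its groups did not overlap, and it did not pass (log2 fold change -1.44, edgeR adjusted p = 0.471). Sik1 was chosen after its values were seen.

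Of 32 upstream kinases and transcription factors that carry the signals to these promoters, 1 fell and 0 rose by edgeR, with a median log2 fold change of 0.06, where 0.221% of all genes were called lower and 0.258% in either direction. The gene that fell was Crem, which encodes cAMP response element modulator and, from an internal promoter, the repressor ICER. It measured 12.6, 7.41 and 6.24 CPM in HET 1, 3 and 4, against 34.5, 20.7 and 32.9 CPM in WT 1, 3 and 4 (log2 fold change -1.71 ± 0.33 SE, adjusted p = 0.0190). HET 1 was again the highest HET library and the groups did not overlap. The call was lost without HET 3 (0.0737), HET 4 (0.206), WT 1 (0.224) or WT 4 (0.101). Srf, the gene of serum response factor, measured 97.5 ± 16.1 CPM in HET and 99.6 ± 9.38 CPM in WT, and Creb1, the gene of the main cAMP response factor, 132 ± 4.83 CPM in HET and 121 ± 8.16 CPM in WT (SD, n = 3 each). Ppp3ca, a calcineurin subunit gene, and Nfatc1, a factor it activates, had log2 fold changes of 0.30 ± 0.17 and 0.20 ± 0.12 (SE) and did not pass.

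Among the 4 measured cofactor genes 0 passed, where 0.258% of all genes did. Nab2, the gene of an EGR corepressor that is itself induced by EGR proteins, measured 60.9 ± 5.95 CPM in HET and 72.1 ± 5.63 CPM in WT (SD, n = 3 each; log2 fold change -0.25 ± 0.17 SE). Nab1 had a log2 fold change of -0.04 ± 0.15 (SE). Rxrb is the gene of a nuclear receptor that pairs with some NR4A proteins. It measured 97.5, 125 and 116 CPM in HET 1, 3 and 4, against 94.2, 96.6 and 91.8 CPM in WT 1, 3 and 4. Its edgeR adjusted p was 0.980.

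Of 30 genes linked to stem cell quiescence 0 passed, where 0.258% of all genes did, and the median log2 fold change was -0.04. All HET libraries were below all WT libraries for 4 of the 30 (13.3%, against 5.64% of all genes) and above them for 2 (510 of 10869 genes). Those of smallest p were Txnip, Hes1 and Cdkn1a. Txnip, the thioredoxin inhibitor gene, differed by 0.61 ± 0.13 on the log2 scale (SE; adjusted p = 0.0672 in edgeR), and it passed without HET 1 (1.75e-04). Hes1, a Notch target, had -1.45 ± 0.45 (0.463). Cdkn1a measured 31.0, 11.3 and 8.77 CPM in HET 1, 3 and 4, against 65.3, 40.1 and 34.8 CPM in WT 1, 3 and 4, without overlap between the groups (log2 fold change -1.41 ± 0.48 SE, adjusted p = 0.788). Of 27 cell cycle genes 0 passed, against 0.258% of all genes, with a median of 0.10. The proliferation marker Mki67 measured 73.4 ± 20.3 CPM in HET and 74.5 ± 22.8 CPM in WT (SD, n = 3 each). Cdk6, Rrm2 and Mcm3 had the smallest p of that list, with log2 fold changes of 0.42, 0.35 and 0.16. HET 1 stood highest here as well: the mean log2 level of the 27 genes relative to WT was 0.50, -0.45 and 0.02 in HET 1, 3 and 4, against -0.04, 0.23 and -0.19 in WT 1, 3 and 4. The mean of the 10 neutrophil markers was 0.88, -1.15 and -0.29 in HET 1, 3 and 4, against 0.29, 1.29 and -1.58 in WT 1, 3 and 4. Megakaryocyte markers, given with the other cell markers further on, were also highest in HET 1. For the 11 long-term stem cell markers, by contrast, HET 1 had the lowest mean of the libraries. That mean was -0.26, 0.07 and 0.15 in HET 1, 3 and 4, against -0.08, -0.09 and 0.18 in WT 1, 3 and 4. The part of these lists in the higher NR4A and EGR levels of HET 1 was not tested.

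Some other markers differed in summed level between the groups without overlap. In edgeR, 0 of the 7 megakaryocyte and 0 of the 4 endothelial and stromal markers tested passed, where 0.258% of all genes did. The summed level of the 7 measured megakaryocyte markers of 8 listed was 562 to 889 CPM in HET, highest in HET 1, and 468 to 541 CPM in WT, and that of the 5 measured endothelial and stromal markers of 9 listed was 211 to 215 CPM in HET and 150 to 189 CPM in WT. Itga2b, the gene of integrin alpha IIb, made up most of the first sum, with 438 ± 107 CPM in HET and 289 ± 26.5 CPM in WT (SD, n = 3 each; edgeR adjusted p = 0.132). In each of these lists, 1 marker had all HET libraries above all WT libraries, as 510 of 10869 genes did. The multipotent progenitor, T and NK cell and erythroid lists also had 1 such marker each. Cd48, which the sort gate selects against, measured 3.67, 8.29 and 8.96 CPM in HET 1, 3 and 4, against 3.25, 2.74 and 1.67 CPM in WT 1, 3 and 4, and did not pass (edgeR adjusted p = 0.849). None of these measured markers was at 0 in all libraries, and their part in the NR4A and EGR differences was not tested. Neutrophil markers (10 of 12 measured) summed to 210 to 479 CPM in HET and 147 to 657 CPM in WT, with overlap. Genes of heat shock and sorting stress, a state in which immediate early genes can also respond, summed to 5925 to 6700 CPM in HET and 6519 to 8304 CPM in WT, overlapping. Hsp90ab1 made up most of this sum, with 4940 ± 375 CPM in HET and 5682 ± 590 CPM in WT (SD, n = 3 each). Of the 12 of these 15 genes that passed the filter on low counts, 0 passed the test, where 0.258% of all genes did. Their median log2 fold change was -0.20, with 9 of the 12 negative. All HET libraries were below all WT libraries for 2 of the 12 (16.7%, against 5.64% of all genes), Dnajb4 among them. Dnajb4, Hsp90ab1 and Hspa8 had the smallest p, with log2 fold changes of -0.49, -0.20 and -0.26.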

How the data were processed

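The authors deposited raw whole-number counts per gene and library in a single table. Per the submitters' processing notes, FastQC, STAR 2.5.2b, edgeR, limma and mm10 were used, with no role or order given. No source used here gives the counting tool, the gene models behind the counts, the kit or whether strand was used. The labels' protocol fields concern other material and were set aside. Groups came from the genotype label and library numbers from the titles. Each gene had at least 1.01 CPM in 2 or more libraries.

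In edgeR 4.0.16 (R 4.3.3), filterByExpr removed 910 genes and left 10869, which were tested for a difference of HET over WT by the robust two-sided quasi-likelihood test, TMM scaling and Benjamini-Hochberg adjustment at 0.05, with group as the only term. The biological coefficient of variation was 20.7%. Standard errors came from the F statistic. Log2 levels used a prior count of 2. Alternatives used DESeq2 1.42.0 and limma 3.58.1. Positions and exon lengths came from GENCODE M21 (GRCm38, also called mm10), found for 11775 of 11779 genes, and promoters from RefSeq. The scripts were tested on simulated data. The members and lists were chosen with earlier results of these data known. Named genes were the members, the genes past the threshold and the 3 of smallest p in each list, and the 5 with the profile nearest to Nr4a1. Examples beyond these (Sik1, Srf, Creb1, Mki67, Ier5, Jun, Fosb, Klf10, Itga2b, Cd48) were chosen after their values were seen. The same likeness was planned for Egr1 and not run. Markers listed but not measured are not analysed here.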

Additional observations from a re-analysis of the deposited data

How the results depend on the processing

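All 5 genes kept a negative log2 fold change in every fit, which for Egr2 is no separate evidence because of how it passed the filter. With 1 library left out, the range was -2.68 to -1.67 for Nr4a1, -2.52 to -1.38 for Nr4a2, -4.13 to -1.58 for Nr4a3, -6.89 to -1.76 for Egr2 and -2.11 to -0.99 for Egr3. The members past the threshold then numbered 0 to 3, the other immediate early genes 4 to 11, and all genes 10 to 68 (10 without HET 4, 11 without WT 1, 68 without HET 1). With all libraries, the members past the threshold numbered 1 by limma-voom (Nr4a1, log2 fold change -2.05), 2 with library weights (Nr4a1, -2.38; Nr4a2, -2.18) and 2 by edgeR without robust estimation, an alternative chosen after seeing the data (Nr4a1, -1.97, adjusted p = 0.00904; Nr4a2, -1.74, adjusted p = 0.0489). In the fit without robust estimation, 32 of 10869 genes passed, 28 of them as lower. The cause of the differences between fits was not tested. All genes past the threshold numbered 57 by DESeq2 and 15 at a threshold of 0.01. Whether library numbers pair the samples cannot be decided from 3 same-numbered pairs (correlations of their deviations -0.044 to 0.112, of which 1 of 3 exceeded 0.1). WT 1 was the highest WT library for Nr4a1, Nr4a2 and Nr4a3, as HET 1 was among the HET libraries. With the replicate block, 49 genes and 0 members passed, and Nr4a3 had an adjusted p of 0.0526. No member's call changed with RLE or upper quartile scaling, without the filter, or with HET 1 thinned. The stricter filter removed Egr2, and DESeq2 gave Egr2 no adjusted p. Low counts limit Egr2, and 3 libraries a group limit all 5.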
